A study of Homo sapiens with 21 samples.

Results

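Gene expression was compared between clones of Panc-1 that grew in SMAP and clones that grew in Sorafenib. Panc-1 is an established human pancreatic ductal carcinoma line. The comparison took every clone whose treatment label names SMAP (SMAP8D, SMAP9C and SMAP6G) and every clone whose treatment label names Sorafenib (Sor6G and Sor9H). Each clone had 3 repeat RNA-seq libraries, so 15 libraries of 5 clones were used out of 21 libraries of 7 clones in the series. Per the labels, both sets of clones were kept in standard culture medium with 8 µM of their drug. The remaining 2 clones of the series, ATUX8H and ATUX9D, were kept in 8 µM ATUX. They entered the fit to estimate the spread between clones, and also entered the scaling and the filter. The set of genes tested was therefore chosen over all 7 clones, and includes genes read mainly in the ATUX clones. Panc-1 cells that had not been exposed to a drug were not analysed here, so every difference below is between 2 kinds of resistant clone, and which of them moved away from the parent line cannot be told apart.

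SMAP stands for small molecule activators of PP2A, the serine/threonine phosphatase that removes phosphate from many kinases, including members of the ERK and AKT pathways. PP2A works as a trimer of a scaffold, a catalytic and a regulatory subunit. Sorafenib inhibits RAF kinases and the VEGF and PDGF receptor kinases, and the series' design text also lists it beside SMAP and ATUX as a PP2A activator. RAF kinases lie above MEK in the cascade that activates ERK. Resistant cells were obtained per the labels by stepwise passaging over 4 months, after which colonies were grown from limiting dilution and those to be sequenced were picked with the help of qRT-PCR. Clones of a drug may therefore share a culture of origin and were in part picked on expression.

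Total counts of the 15 libraries ran from 21022621 to 27691256, and mitochondrial genes took 3.44 to 4.22% of them in SMAP libraries and 3.58 to 5.22% in Sorafenib libraries. Levels are CPM, the counts of a gene relative to the library total, after scaling by trimmed mean of M values, from the summed libraries of a clone. Values are listed throughout in the order SMAP8D, SMAP9C, SMAP6G and Sor6G, Sor9H. The labelled cell type, duct epithelium, was set against its markers: 10 markers (KRT8, KRT18, KRT19 and SOX9 among them) summed to 1539, 1962 and 3141 CPM in the SMAP clones and to 3882 and 4898 CPM in the Sorafenib clones. CFTR was below 1 CPM in each of the 5 clones, as were each of the 6 acinar, 5 endocrine, 5 immune and 4 endothelial markers listed. The 6 fibroblast markers summed to 174.7, 193.1 and 52.25 CPM in the SMAP clones and to 66.15 and 150.6 CPM in the Sorafenib clones, with DCN below 1 CPM. The third library of Sor9H stood apart, with a chi-square per degree of freedom of 15.6 and 14.0 against the other libraries of its clone, where the other pairs within the 5 clones gave 2.26 to 5.54. The root mean square log2 distance was 0.654 to 0.743 between SMAP clones, 0.620 between the Sorafenib clones and 1.48 to 1.63 between clones of different drugs.

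Of 18613 genes tested, 6428 (34.5%) differed between the drugs at an adjusted p below 0.05 (edgeR's quasi-likelihood test with the clone as replicate, Benjamini-Hochberg adjustment). Of these, 3133 genes (16.8%) were higher and 3295 (17.7%) were lower in the SMAP clones, and the median log2 difference over the tested genes was 0.01. Among the 11017 genes that averaged 5 CPM or more, 40.3% were called. Counts of listed genes below are to be read beside these shares. The difference is SMAP minus Sorafenib on the log2 scale throughout. After the ± sign stands an approximate standard error, the size of the difference over the square root of the test's F statistic. The difference was past 1 in either direction for 3839 of the called genes. Library ranges of the drugs did not overlap for 5868 of the 6428 called genes. The same count over genes that were not called is not given here, so this is no separate support for the calls. With 2 Sorafenib clones, the counts rest heavily on each: without Sor6G they were 1560 higher and 1804 lower, and without Sor9H 1278 and 1483. Without only the third library of Sor9H, a setting chosen after seeing the data, they were 3116 and 3234. A call means that the gene differed by more than the spread between these picked clones.

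Several genes were abundant in one drug and nearly silent in the other. Most leading genes were named on condition that libraries of the drugs did not overlap. List members were named for the size of their difference. Statements of no overlap here and below therefore describe the named genes and do not test them. CYP1B1, a cytochrome P450 that oxidises estrogens and polycyclic hydrocarbons (ENSG00000138061, chromosome 2, 38066973 to 38109902 on the minus strand, build GRCh38), was read at 1279, 858 and 782 CPM in the SMAP clones and at 0.2 and 0.147 CPM in the Sorafenib clones (log2 difference 12.43 ± 0.43, adjusted p = 0.000465). Single SMAP libraries spanned 778 to 1334 CPM and Sorafenib libraries 0.0883 to 0.247 CPM. TNC, which encodes the matrix protein tenascin-C (ENSG00000041982, chromosome 9, 115019578 to 115118257 on the minus strand), was at 205, 527 and 78.6 CPM against 0.0533 and 0.05898 CPM (log2 difference 12.19 ± 1.67, adjusted p = 0.0036). SMAP9C was highest and SMAP6G lowest in TNC, and each exceeded the Sorafenib clones. CES1, a carboxylesterase that hydrolyses ester drugs, was at 27.1, 40.3 and 19.7 CPM against 0.0133 and 0.0147 CPM (log2 difference 10.84 ± 0.68, adjusted p = 0.000688).

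Several surface proteins gave no count at all in the 6 Sorafenib libraries. NCAM1, a neural cell adhesion molecule, was read in the SMAP clones at 42.01, 21.03 and 44.4 CPM. This is at least 1695-fold higher when 3 counts over the Sorafenib group are taken as the floor. CDH18, a type II cadherin, stood at 27.1, 32.2 and 45.8 CPM, at least 1658-fold higher. ADGRF1, an adhesion G protein-coupled receptor, stood at 17.5, 35.03 and 26. CPM, at least 1240.0-fold higher. Each SMAP clone carried these 3 genes, and neither Sorafenib clone gave a count of them at this depth. RNF128, a membrane-bound ubiquitin ligase, was at 27.2, 34.2 and 22.3 CPM (at least 1321-fold higher) and PLA2G7, a secreted phospholipase that degrades platelet-activating factor, at 10.4, 22.1 and 11.97 CPM (at least 702-fold higher). SLC1A3, a glutamate and aspartate importer, was at 4.26, 4.47 and 18.6 CPM (at least 432-fold higher) and highest in SMAP6G. The long noncoding RNA RP11-54H7.4 was at 14.8, 14.1 and 25.8 CPM, also against 0 counts. SFRP5, a secreted WNT antagonist, at 14.98, 1.401 and 2.12 CPM, and PRICKLE2, a planar polarity protein, at 2.88, 13.7 and 0.712 CPM, varied more among the SMAP clones. Leaving out a clone ended the calls of SFRP5 (without Sor6G or Sor9H, adjusted p up to 0.089) and PRICKLE2 (without SMAP8D, Sor6G or Sor9H, adjusted p up to 0.12). ZNF385D, a zinc finger gene, stood at 43.9, 61.9 and 56.8 CPM against 1 count in the Sorafenib group. The counting floor covers counting error only. CDH18 and SLC1A3 lie on chromosome 5, where expressed genes within 5 Mb had median log2 differences of 1.38 and 0.93, and RP11-54H7.4 lies on chromosome 13 among neighbours at 1.46.

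**Figure D1:**
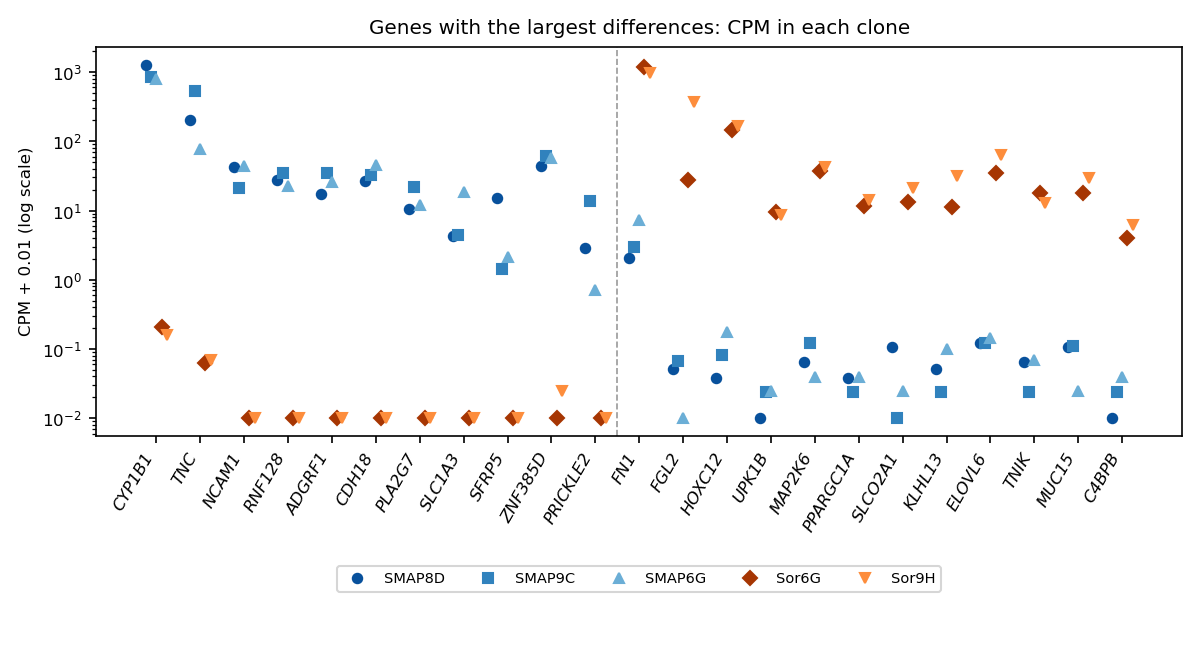
CPM plus 0.01 (log axis) of 11 genes far higher and 12 genes far lower in SMAP clones, with a point for each of the 5 clones; the dashed line parts the 2 directions. Most genes sit near the floor in one drug and above 1 CPM in the other, while FN1 and TNC also differ among the SMAP clones.

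In the opposite direction, the genes that were nearly silent in SMAP clones covered matrix, signalling and metabolic roles. FN1, which encodes fibronectin (ENSG00000115414, chromosome 2, 215360440 to 215436172 on the minus strand), was at 1198 and 970.3 CPM in the Sorafenib clones and at 2.08, 2.97 and 7.24 CPM in the SMAP clones (log2 difference -8.05 ± 0.71, adjusted p = 0.0012). HOXC12, a homeobox transcription factor (ENSG00000123407, chromosome 12, 53954834 to 53958956 on the plus strand), was at 147 and 164 CPM against 0.0277, 0.0708 and 0.163 CPM (log2 difference -10.79 ± 0.85, adjusted p = 0.00103). Both were high in each Sorafenib clone and low in each SMAP clone. FGL2, a fibrinogen-like prothrombinase, was at 27.3 and 376 CPM against 0.0416, 0.0566 and 0 CPM (log2 difference -12.49 ± 1.47, adjusted p = 0.0025), and Sor9H carried most of it. MAP2K6, the kinase that activates p38, was at 37.3 and 41.9 CPM against 0.0555, 0.113 and 0.0297 CPM (adjusted p = 0.00275). TNIK, a kinase of the WNT pathway, was at 17.8 and 12.7 CPM against 0.0555, 0.0141 and 0.0593 CPM (adjusted p = 0.00336). Neither kinase reached 0.2 CPM in a SMAP clone. PPARGC1A, a coactivator of mitochondrial biogenesis, was at 11.7 and 14.4 CPM against 0.0277, 0.0141 and 0.0297 CPM (adjusted p = 0.000465). SLCO2A1, a prostaglandin transporter, was at 13.2 and 20.9 CPM against 0.0971, 0 and 0.0148 CPM, and KLHL13, an adaptor of a cullin ubiquitin ligase, at 11.4 and 31.1 CPM against 0.0416, 0.0141 and 0.08903 CPM. MUC15, a membrane mucin, was at 18.04 and 29.6 CPM against 0.0971, 0.0991 and 0.0148 CPM. The calls of the 9 genes above were kept without any 1 of the 5 clones. C4BPB, a chain of a complement inhibitor, UPK1B, a uroplakin, and the long noncoding RNA RP1-193H18.2 had 3, 2 and 3 counts in all 9 SMAP libraries against 720, 1293 and 1413 counts in the 6 Sorafenib libraries. KLHL13 lies on X, where neighbouring genes were higher in SMAP clones (median log2 1.04), so it ran against its neighbourhood. FGL2 on chromosome 7 and C4BPB on chromosome 1 ran with their neighbours (-0.7 and -0.61).

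Among abundant transcripts, those with the largest CPM gaps included cytoskeletal, glycolytic and iron storage genes. TNFRSF21, a death receptor, was at 996, 1394 and 1073 CPM against 132 and 99.4 CPM (log2 difference 3.32 ± 0.24, adjusted p = 0.000716). LDHA, which turns pyruvate into lactate, was at 2183, 2254 and 2329 CPM against 406 and 489 CPM (log2 difference 2.33 ± 0.14, adjusted p = 0.000491). FTH1, the ferritin heavy chain, was at 4618, 4018 and 5482 CPM against 1729 and 1474 CPM (log2 difference 1.55 ± 0.18, adjusted p = 0.00232). These were higher in SMAP clones, as were further abundant genes. ENO1 (3356, 4218 and 3533 against 1541 and 1481 CPM), TMSB4X (1903, 2052 and 1418 against 535 and 778 CPM), ACTG1 (4002, 4429 and 3753 against 1964 and 2571 CPM), PKM (3540.0, 4131 and 3153 against 1959 and 2280.0 CPM) and VIM (3760.0, 4728 and 3808 against 2552 and 2585 CPM) were among them. Calls were lost on leaving out a clone for ACTG1 (without Sor6G, adjusted p 0.0606), PKM (without SMAP8D, SMAP9C, Sor6G or Sor9H, adjusted p up to 0.176) and VIM (without Sor6G or Sor9H, adjusted p up to 0.0824). TMSB4X lies on X among neighbours at a median log2 of 0.68.

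On the other side, CAPN2, a calcium-dependent protease, was at 1746 and 2417 CPM in Sorafenib clones against 346, 319 and 409 CPM (log2 difference -2.54 ± 0.22, adjusted p = 0.0011), with neighbours on chromosome 1 at a median log2 of -0.76. HSPG2, the basement membrane proteoglycan perlecan, was at 1815 and 1986 CPM against 274, 362 and 368 CPM (log2 difference -2.5 ± 0.41, adjusted p = 0.00628). PYGB, a glycogen phosphorylase, was at 1727 and 2091 CPM against 421, 404 and 451 CPM (log2 difference -2.17 ± 0.14, adjusted p = 0.000596). A lack of overlap between the 2 sets of clones was a condition for naming these genes. RPS16, a ribosomal protein of the small subunit (3322 and 3608 against 1887, 2187 and 1722 CPM), PSAP, a precursor of lysosomal activators (3230.0 and 3523 against 1843, 1974 and 2351 CPM), ACTN4, an actin crosslinker (2688 and 3862 against 1815, 1838 and 1521 CPM), PODXL, a sialomucin (2190.0 and 3965 against 980.5, 436 and 995 CPM), and KRT8, a simple epithelial keratin (2083 and 2756 against 805, 912 and 1500.0 CPM), were lower in SMAP clones too. Leaving out a clone ended the calls of PSAP (without Sor9H, adjusted p 0.084), ACTN4 (without Sor9H, adjusted p 0.067), PODXL (without Sor9H, adjusted p 0.138) and KRT8 (without SMAP8D, SMAP9C, Sor6G or Sor9H, adjusted p up to 0.155). PODXL lies on chromosome 7 among neighbours at -0.64. FTH1, ENO1, ACTG1, TMSB4X, PKM and RPS16 have processed pseudogenes or close copies, and how reads with several matches were counted is not given in the sources used here.

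Genes of amino acid shortage and of the integrated stress response were mostly higher in the Sorafenib clones. In this pathway, kinases that sense missing amino acids, unfolded protein or other stress lead to translation of the transcription factor ATF4, which in turn switches on amino acid synthesis, import and tRNA charging. Of 34 listed targets tested, 23 were lower and 1 was higher in SMAP clones (list median log2 -1.46), against 17.7% lower and 16.8% higher over the tested genes. ATF4 itself was at 159, 172 and 138 CPM in SMAP clones and at 374 and 321 CPM in Sorafenib clones (log2 difference -1.15 ± 0.13, adjusted p = 0.00209). ASNS, the asparagine synthetase, was at 139, 119.6 and 108 against 664 and 517 CPM (log2 difference -2.27 ± 0.21, adjusted p = 0.0012). TRIB3, a pseudokinase that restrains ATF4, was at 41.97, 37.2 and 27.8 against 297 and 194 CPM (log2 difference -2.78 ± 0.49, adjusted p = 0.00791). Levels of these genes were close to each other in the SMAP clones and higher in Sor6G than in Sor9H. NUPR1, a stress-induced chromatin protein, was at 6.82, 9.54 and 9.08 against 195 and 114 CPM (log2 difference -4.19 ± 0.82, adjusted p = 0.0109), and DDIT3, the transcription factor CHOP, at 18.1, 17.9 and 17.5 against 104 and 39.6 CPM (log2 difference -2.0 ± 0.42, adjusted p = 0.0134). SESN2, a sestrin that restrains mTORC1, was at 22.6, 25.3 and 17.3 against 143 and 86.6 CPM, and JDP2, a basic leucine zipper repressor, at 8.18, 6.26 and 7.26 against 43.8 and 40.1 CPM. SLC7A5, the leucine importer, was the exception, at 766, 1208 and 666 against 332 and 197 CPM (log2 difference 1.74 ± 0.42, adjusted p = 0.0217). DDIT4, an inhibitor of mTORC1, was at 208, 316 and 231 against 639 and 345 CPM and was not called (adjusted p = 0.116), nor were SLC38A2 (adjusted p = 0.0765), SLC3A2 (0.657) and VEGFA (0.646). The count of lower targets was 18 to 23 when any 1 clone was left out, and the 1 higher target became 0 without SMAP9C or Sor9H and 2 without ATUX9D. Calls lost on leaving out a clone were those of NUPR1 (without Sor6G, adjusted p 0.054), DDIT3 (without Sor6G, adjusted p 0.0648) and SLC7A5 (without SMAP9C, Sor6G or Sor9H, adjusted p up to 0.134). ASNS lies on chromosome 7, where expressed genes within 5 Mb had a median log2 of -0.78. Over the list, the neighbours' median was 0.01, and 20 of the 29 targets whose neighbours lay within 0.5 of 0 were lower.

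The promoters of the ATF4 targets are shown because these genes moved together. The table of RefSeq promoters (GRCh38.p14, 250 bases before to 50 after a gene's start) held 28 of the 34 targets, and 8 of these (28.6%) hold TGATGNAA, the core letters of the element through which ATF4 acts with C/EBP partners, on either strand, compared with 2.82% of the promoters of the tested genes and 4.46% of the promoters in the table. Among 19 targets that were lower in SMAP clones and had a promoter, 5 hold it, beside the 8 of 28 over the list. The list was written as targets of this pathway, so its share above that of the tested genes describes the list and not these clones. Stretches of 4 called genes that hold it are printed 5′ to 3′ on the gene's strand, with the match in capitals. They were picked by the size of their difference, but the choice did not take in every promoter, so they are no ranking of the holders.
JDP2 (chr14:75427980-75428039, plus strand): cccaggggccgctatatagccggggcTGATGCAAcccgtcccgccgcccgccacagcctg
ASNS (chr7:97872443-97872502, minus strand): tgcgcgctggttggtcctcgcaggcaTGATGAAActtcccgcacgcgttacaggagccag
CEBPG (chr19:33374045-33374104, plus strand): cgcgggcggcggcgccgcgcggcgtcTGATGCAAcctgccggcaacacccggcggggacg
ATF3 (chr1:212565190-212565249, plus strand): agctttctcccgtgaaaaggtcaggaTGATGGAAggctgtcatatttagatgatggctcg
CEBPG, a C/EBP partner of ATF4, was at 61.2, 63.4 and 49.4 CPM in SMAP clones and at 257 and 161 CPM in Sorafenib clones, and ATF3, a stress-induced repressor, at 7.89, 9.19 and 7.85 against 24.1 and 18.8 CPM (adjusted p = 0.00244 and 0.00304). These 2 genes are named because they hold the motif, after their values were seen. Expressed genes within 5 Mb of ATF3 had a median log2 of -0.57. A match is a description of letters and not a shown binding site.

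Enzymes that make serine and pass its carbon to folate were split between the drugs. Of 18 such enzymes tested, 5 were lower and 4 higher in SMAP clones (median log2 -0.09). PHGDH, which starts serine synthesis from glycolysis, was at 31.8, 32.6 and 13.7 CPM in SMAP clones and at 394 and 326 CPM in Sorafenib clones (log2 difference -3.79 ± 0.66, adjusted p = 0.00746). PSAT1, the next enzyme, was at 112, 126 and 70.4 against 531 and 379.5 CPM (log2 difference -2.15 ± 0.34, adjusted p = 0.00537). ALDH1L2, a mitochondrial enzyme that oxidises formyl-folate, was at 1.76, 1.32 and 0.668 against 186 and 135 CPM (log2 difference -7.0 ± 0.82, adjusted p = 0.00246). SMAP6G was lowest of all clones in each of these enzymes. The mitochondrial MTHFD2 (206, 192 and 174 against 578 and 392 CPM) and SHMT2 (64.6, 52.6 and 46.2 against 134 and 119 CPM) were lower as well. PSPH, the last enzyme of serine synthesis, was not called (54.7, 37.5 and 52.3 against 67.2 and 53.1 CPM, adjusted p = 0.365). The cytosolic MTHFD1 (162, 125 and 149 against 76.8 and 72.8 CPM) and the thymidylate synthase TYMS (280.2, 187 and 222 against 134 and 83.9 CPM) ran the other way and were higher in SMAP clones. Leaving out a clone ended the call of TYMS (without SMAP8D, SMAP6G or Sor9H, adjusted p up to 0.171) and brought the 4 higher enzymes to 2 without Sor9H.

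Cytosolic tRNA synthetases split: of 20 tested, 9 were lower and 5 higher in SMAP clones (median log2 -0.09). WARS (93.8, 89.04 and 74.7 against 338 and 243 CPM), EPRS (311, 323 and 365 against 986 and 850.4 CPM), MARS (238, 251 and 187 against 560.5 and 463 CPM), GARS (288, 242 and 238 against 628 and 500.2 CPM) and AARS (241, 252 and 223 against 560.3 and 439 CPM), which charge tryptophan, glutamate and proline, methionine, glycine and alanine, were the lower members with the largest differences (highest adjusted p among them 0.00367). HARS (91.99, 92.99 and 111 against 45.5 and 45.99 CPM), RARS (122, 128 and 151 against 65.9 and 73.1 CPM) and TARS (521, 617 and 503 against 389.8 and 326 CPM) were higher in SMAP clones. Those 3 lie on chromosome 5 among neighbours at median log2 differences of 0.56, 0.55 and 1.08, and EPRS lies on chromosome 1 among neighbours at -0.99. Whether gene dosage has a part in these was not tested, since DNA copy number was not measured. Without Sor9H the call of TARS was lost (adjusted p = 0.122) and 3 synthetases were higher. Amino acid transporters also ran both ways, with 9 higher and 5 lower of 22. The cystine importer SLC7A11 (82.03, 64.8 and 52.6 against 269 and 242 CPM) and the glutamine importer SLC1A5 (140.1, 113 and 132 against 319.8 and 268 CPM) were lower in SMAP clones, and the glutamine transporter SLC38A3 (11.6, 2.86 and 7.02 against 0.173 and 0.133 CPM) was higher. The higher transporters numbered 3 without Sor6G and 4 without Sor9H, and the lower ones 3 without Sor6G.

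**Figure D2:**
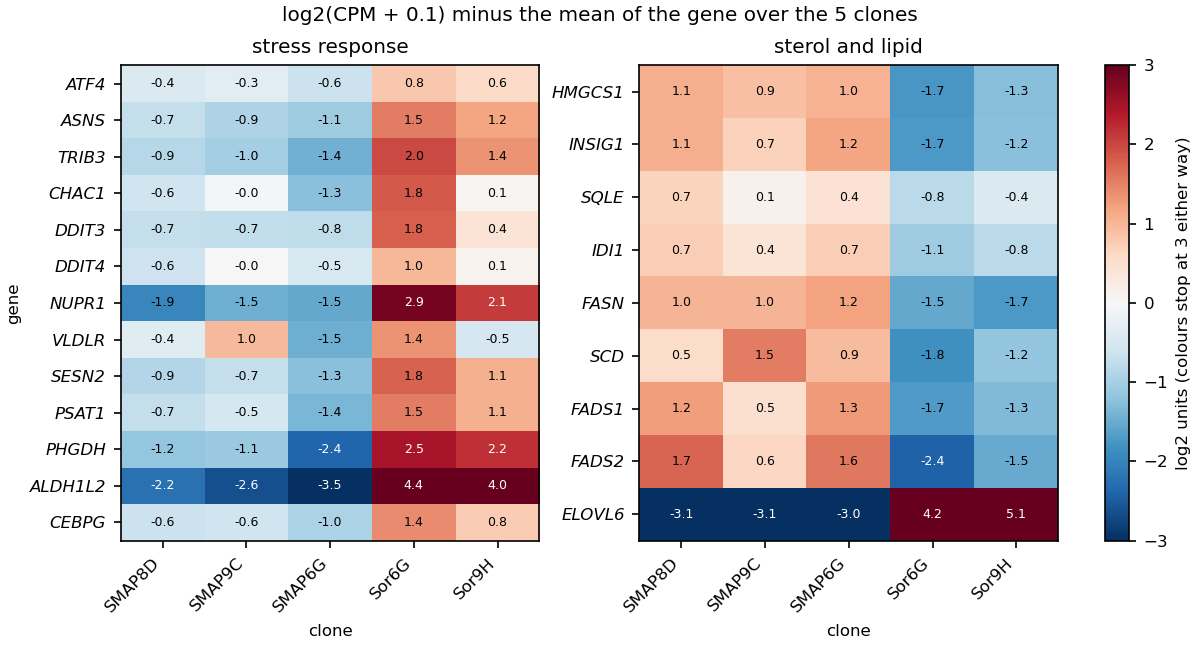
Colour and number give log2(CPM + 0.1) of a clone minus the mean of the gene over the 5 clones, for 13 stress response genes and 9 sterol and lipid genes (rows) in 5 clones (columns). ATF4 targets are red in the Sorafenib clones, lipid enzymes are red in the SMAP clones, and ELOVL6 runs against the other lipid enzymes; CHAC1, DDIT4 and VLDLR vary within a drug.

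Sterol synthesis ran the opposite way to the stress response. SREBP transcription factors turn on the enzymes of cholesterol and unsaturated fatty acid synthesis when membrane sterol is low. Of 24 listed genes of cholesterol synthesis and uptake, 21 were higher and 0 lower in SMAP clones (median log2 1.32). HMGCS1, an early enzyme of the pathway, was at 241, 212 and 232 CPM in SMAP clones and at 33.7 and 46.4 CPM in Sorafenib clones (log2 difference 2.51 ± 0.18, adjusted p = 0.000716). INSIG1, which holds back SREBP, was at 122, 93.7 and 132 against 17.5 and 24.4 CPM (log2 difference 2.47 ± 0.22, adjusted p = 0.00117). These 2 genes were evenly high over the SMAP clones and did not overlap with the Sorafenib clones. Late enzymes were also higher, with EBP at 30.8, 21.3 and 29.9 against 6.27 and 7.02 CPM and NSDHL at 47.03, 46.4 and 59.03 against 10.1 and 10.7 CPM. TM7SF2, SC5D and CYP51A1 were not called (adjusted p = 0.0536, 0.0976 and 0.24). The count of higher genes was 14 to 21 when any 1 clone was left out, and 1 gene was lower without SMAP6G. Lost calls included NSDHL (without Sor6G or Sor9H, adjusted p up to 0.0559). HMGCS1 lies on chromosome 5 (neighbours at 0.92), and EBP and NSDHL on X (neighbours at 0.9 and 0.86). Of the 19 members whose neighbours lay within 0.5 of 0, 17 were higher, with a median log2 of 1.17.

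Fatty acid enzymes were higher in SMAP clones in 12 of 24 cases and lower in 4 (median log2 1.09). Over the 19 members whose neighbours lay within 0.5 of 0, 9 were higher and 4 lower, with a median log2 of 0.38. FASN, the fatty acid synthase, was at 601, 605 and 688 CPM in SMAP clones and at 103 and 89.8 CPM in Sorafenib clones (log2 difference 2.71 ± 0.28, adjusted p = 0.00163). SCD, which puts the double bond into stearate, was at 858, 1693 and 1135 against 164 and 261 CPM (log2 difference 2.53 ± 0.35, adjusted p = 0.00367). The desaturases FADS1 (304, 179 and 311 against 39.4 and 51.03 CPM) and FADS2 (158, 72.7 and 142 against 8.72 and 16.5 CPM), which make polyunsaturated acids, and ACSL1 (28.6, 30.7 and 30.5 against 4.36 and 2.85 CPM), which activates long-chain acids, followed. In each of these genes every SMAP clone was above both Sorafenib clones. ELOVL6, which elongates palmitate, was instead at 0.111, 0.113 and 0.134 CPM in SMAP clones and at 34.4 and 62.9 CPM in Sorafenib clones (log2 difference -8.65 ± 1.43, adjusted p = 0.00632). AGPAT2, an acyltransferase of phosphatidic acid synthesis (40.2, 41.2 and 46.5 against 139.8 and 219 CPM), ACACB, the mitochondrial acetyl-CoA carboxylase (13.8, 11.7 and 11.6 against 42.6 and 32.7 CPM), and GPAM, which starts glycerolipid synthesis (21.3, 23.2 and 17.9 against 34.2 and 31.9 CPM), were lower too. Among these 9 genes, leaving out a clone ended only the call of GPAM (without Sor6G or Sor9H, adjusted p up to 0.0864). In the ATUX clones ELOVL6 stood at 6.22 and 0.141 CPM and FASN at 675 and 1244 CPM. ELOVL1, ACSL3 and ACSL4 were not called (adjusted p = 0.662, 0.11 and 0.111).

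Replication genes were higher in SMAP clones. E2F transcription factors drive these genes at the passage from G1 into S phase. SMAP clones had 26 of 37 listed replication and G1 to S genes higher and 1 lower (median log2 1.09). CDC6, which loads the replicative helicase, was at 52.9, 35.2 and 43.4 CPM in SMAP clones and at 13.2 and 10.96 CPM in Sorafenib clones (log2 difference 1.86 ± 0.21, adjusted p = 0.00198). POLA1, the catalytic subunit of DNA polymerase alpha, was at 75.3, 64.2 and 59.7 against 22.7 and 18.5 CPM (log2 difference 1.69 ± 0.16, adjusted p = 0.00123). CCNE2, a cyclin of the G1 to S passage, was at 26.8, 11.96 and 18.03 against 5.44 and 5.63 CPM (log2 difference 1.77 ± 0.38, adjusted p = 0.0144), and FEN1, the flap endonuclease, at 115, 53.7 and 82.7 against 26.4 and 26.4 CPM (log2 difference 1.67 ± 0.33, adjusted p = 0.0111). SMAP8D was highest and no SMAP clone overlapped with a Sorafenib clone in these 4 genes. CCND1 (416, 361 and 234 against 292 and 420.2 CPM, adjusted p = 0.863), MCM7 (0.155) and RFC4 (0.157) were not called. Without Sor9H the count of higher genes fell to 11, the 1 lower gene was lost without SMAP8D, SMAP6G or either Sorafenib clone, and leaving out a clone ended the calls of CCNE2 (without Sor6G or Sor9H, adjusted p up to 0.0861) and FEN1 (without Sor6G or Sor9H, adjusted p up to 0.0736). CDC6 lies on chromosome 17 among neighbours at 0.76 and POLA1 on X among neighbours at 1.34; of the 32 members whose neighbours lay within 0.5 of 0, 24 were higher.

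Calls among mitotic genes were few and depended on the fit. Of 30 listed G2 and mitosis genes, 4 were higher and 0 lower in SMAP clones (median log2 0.44). The 13.3% called is below the 34.5% over the tested genes. The named ones were CCNB1, the mitotic cyclin (263, 222 and 253 against 145 and 75.2 CPM), KIF20A and KIF23, kinesins of cytokinesis (186, 168 and 154 against 87.7 and 48.9 CPM and 248, 198 and 187 against 144 and 71.1 CPM), and PTTG1, the securin (102, 90.7 and 102 against 65.03 and 40.2 CPM). Each of these 4 calls was lost on leaving out a clone: CCNB1 (without SMAP8D, SMAP6G or Sor9H, adjusted p up to 0.0586), KIF20A (without SMAP8D, SMAP9C or Sor9H, adjusted p up to 0.099), KIF23 (without SMAP8D, SMAP9C, SMAP6G or Sor9H, adjusted p up to 0.112) and PTTG1 (without SMAP8D, SMAP6G or Sor9H, adjusted p up to 0.097). MKI67, a proliferation marker, was at 738, 512 and 562 against 383 and 194 CPM (adjusted p = 0.0505), TOP2A at 738, 575 and 650.3 against 449 and 208 CPM (0.0517) and TPX2 at 650.0, 508 and 519 against 579 and 313 CPM (0.422). Sor9H was lowest in each, and Sor6G lay within the range of the SMAP clones for TPX2. Relative to the mean of a gene over the 5 clones, the median mitotic gene stood at 0.42, 0.04 and 0.17 on the log2 scale in the SMAP clones, at 0.14 in Sor6G and at -0.69 in Sor9H. Without Sor6G, 15 of the 30 were called higher in SMAP clones, without Sor9H 0 were higher and 2 lower, and without SMAP8D, SMAP9C and SMAP6G in turn 0, 2 and 1 were higher. DESeq2 called 11 higher and limma-voom, with random clone effects, 15, MKI67 and TOP2A among them. The mitotic and replication lists were not tested against each other. The median replication gene stood at 0.70, 0.17 and 0.43 in the SMAP clones and at -0.47 and -0.84 in the Sorafenib clones. The median replication gene was thus below its mean in both Sorafenib clones, and the median mitotic gene in Sor9H. KIF20A, CCNB1 and PTTG1 lie on chromosome 5 among neighbours at 0.59, 0.54 and 0.58.

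Promoters of the replication genes are shown for their E2F letters. Of the 37 genes, 29 had a RefSeq promoter (GRCh38.p14), and 18 of these (62.1%) hold TTTNNCGC on either strand, compared with 12.5% of the promoters of tested genes and 8.23% of the promoters in the table. Among 20 that were higher in SMAP clones and had a promoter, 12 hold it, beside the 18 of 29 over the list. The list was chosen by role, so its share above that of the tested genes describes the list and not these clones. Stretches of 4 called holders, picked in the same way and again no ranking, are printed with the match in capitals, 5′ to 3′ on the gene's strand. In POLA1 and PCNA the letters are on the opposite strand.
CDC6 (chr17:40287860-40287919, plus strand): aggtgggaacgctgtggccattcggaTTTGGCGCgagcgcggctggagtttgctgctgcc
POLA1 (chrX:24693755-24693814, plus strand): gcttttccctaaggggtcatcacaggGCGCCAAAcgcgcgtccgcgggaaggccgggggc
UHRF1 (chr19:4909363-4909422, plus strand): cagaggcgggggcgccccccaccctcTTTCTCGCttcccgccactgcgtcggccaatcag
PCNA (chr20:5126648-5126707, minus strand): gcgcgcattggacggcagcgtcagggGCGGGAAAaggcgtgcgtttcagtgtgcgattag
UHRF1, which brings DNA methylation to new strands, was at 42.9, 33.5 and 37.02 against 15.6 and 12.2 CPM, and PCNA, the sliding clamp, at 232, 172 and 190.4 against 74.1 and 74.5 CPM (adjusted p = 0.00282 and 0.0031). Both are named for the motif, after their values were seen.

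**Figure D3:**
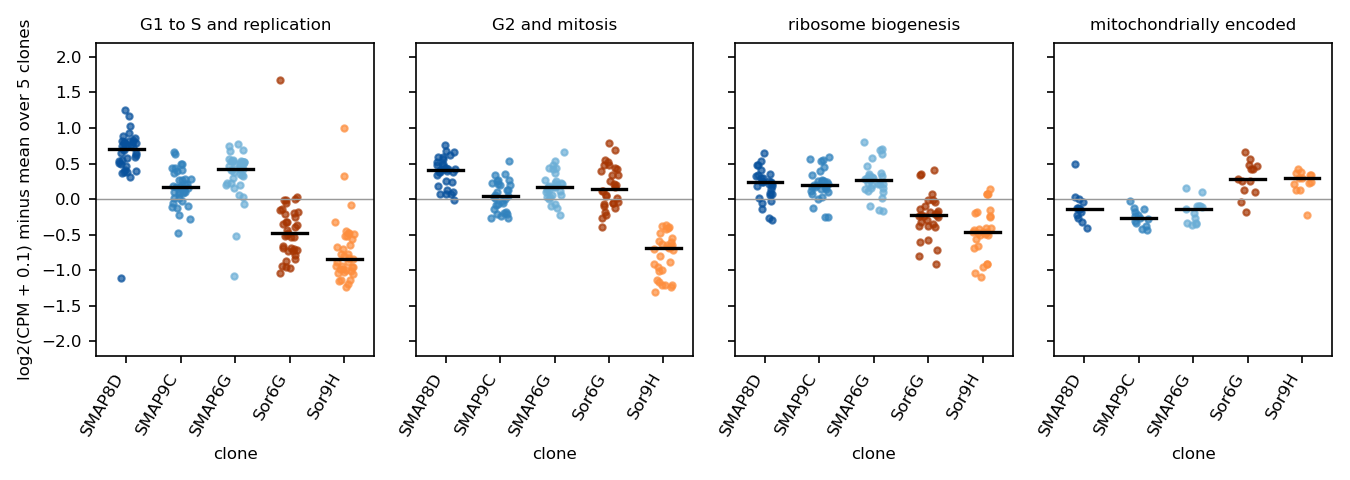
Each point is a gene's log2(CPM + 0.1) in a clone minus its mean over the 5 clones, in 4 gene lists, with the list median as a black bar. The replication panel has both Sorafenib clones below 0, the mitosis panel has Sor9H at -0.69 and Sor6G at 0.14, and the mitochondrial panel has both Sorafenib clones above the SMAP clones.

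Ribosome biogenesis factors were higher in SMAP clones in 19 of 29 cases, with 1 lower (median log2 0.57). NPM1, a nucleolar histone chaperone, was at 1038, 1102 and 1205 CPM in SMAP clones and at 429 and 385 CPM in Sorafenib clones (log2 difference 1.45 ± 0.13, adjusted p = 0.00117). BOP1, a factor of large-subunit assembly, was at 103, 99.3 and 97.98 against 40.1 and 30.9 CPM (log2 difference 1.5 ± 0.14, adjusted p = 0.00133), and NOP16 at 35.2, 36.1 and 40.8 against 17.6 and 13.99 CPM (log2 difference 1.24 ± 0.16, adjusted p = 0.00302). Each SMAP clone was above each Sorafenib clone in these genes. FBL, NCL and NOP58 were not called (adjusted p = 0.487, 0.0966 and 0.084). Without Sor9H the count fell from 19 to 5, and the 1 lower factor was lost without SMAP8D, SMAP9C or Sor6G. NPM1 and NOP16 lie on chromosome 5 among neighbours at 0.66 and 0.66, BOP1 lies among neighbours at -0.05, and 14 of the 20 members with neighbours within 0.5 of 0 were higher. Transcripts of the mitochondrial genome ran the other way, with 8 of 13 lower in SMAP clones and 0 higher (median log2 -0.53). MT-ND2, a subunit of complex I, was at 1478, 1339 and 1411 against 2820.0 and 2302 CPM (log2 difference -0.86 ± 0.13, adjusted p = 0.00438) and MT-ND3 at 447, 468 and 556 against 798 and 794 CPM (log2 difference -0.7 ± 0.13, adjusted p = 0.00768), whereas MT-CO1, MT-CO2 and MT-CO3 of complex IV were not called (adjusted p = 0.138, 0.862 and 0.787). Without Sor6G, 2 were lower. Both Sorafenib clones were above each SMAP clone in MT-ND2 and MT-ND3. By library, however, the third of Sor9H had 3.58% mitochondrial counts, within the SMAP range, against 5.06 and 5.22% in the other Sor9H libraries. Without that library 9 of the 13 transcripts were lower in SMAP clones. Of 39 nuclear genes of oxidative phosphorylation, 7 were higher and 4 lower (median log2 0.10). The 28.2% called is below the 34.5% over the tested genes, and both counts depended on which Sorafenib clones were kept.

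Genes of PP2A, the target of SMAP, differed in a few members. Of 34 PP2A subunits and regulators, 7 were higher and 3 lower in SMAP clones (median log2 0.01), against 16.8% and 17.7% over the tested genes. PPP2R2C, a brain-enriched B regulatory subunit, had the largest difference of the list, at 19.8, 26.96 and 18.8 CPM in SMAP clones and at 1.67 and 0.885 CPM in Sorafenib clones (log2 difference 4.09 ± 0.56, adjusted p = 0.00357). PPP2CA, the main catalytic subunit, was at 177, 188 and 178 against 100.3 and 101 CPM (log2 difference 0.84 ± 0.11, adjusted p = 0.0032), and PPP2R1A, the main scaffold, at 207, 199 and 182 against 122 and 143 CPM (log2 difference 0.56 ± 0.14, adjusted p = 0.0236). The drugs did not overlap in these 3 genes. PPP2R5B, a B56 regulatory subunit (26.2, 26.6 and 24.9 against 39.7 and 51.5 CPM), and ARPP19, an inhibitor of PP2A in mitosis (178, 176 and 193 against 316 and 349 CPM), were lower in SMAP clones (adjusted p = 0.00599 and 0.00263). SET, an inhibitor of PP2A, PTPA, its activator, and ENSA, a relative of ARPP19, were not called (adjusted p = 0.33, 0.0938 and 0.0664). The call of PPP2R1A was lost when SMAP8D, SMAP9C or either Sorafenib clone was left out (highest adjusted p = 0.13), and the 7 higher members became 4 without SMAP8D or SMAP9C, 3 without Sor6G and 2 without Sor9H. PPP2CA lies on chromosome 5 among 50 expressed neighbours at a median log2 of 0.72, close to its own difference, and ARPP19 among neighbours at -0.64.

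Kinases at the top of the ERK cascade ran both ways. Of 28 receptor tyrosine kinases and RAF kinases, 4 were higher and 9 lower in SMAP clones (median log2 0.09). ARAF, a RAF kinase, was higher in SMAP clones (93.2, 83.6 and 85.5 against 35.97 and 39.7 CPM, log2 difference 1.21 ± 0.2, adjusted p = 0.00622), and BRAF was lower (54.4, 45.5 and 56.97 against 93.5 and 86.4 CPM, log2 difference -0.78 ± 0.13, adjusted p = 0.0054). ARAF lies on X among neighbours at 0.87 and BRAF on chromosome 7 among neighbours at -0.73, which are near their own values. AXL, a receptor for GAS6, was at 185, 160.4 and 203 against 646 and 565 CPM (log2 difference -1.73 ± 0.22, adjusted p = 0.00272), MERTK, its relative, at 12.9, 10.6 and 13.7 against 31.2 and 23.1 CPM (log2 difference -1.13 ± 0.19, adjusted p = 0.00618), and EPHB4, an ephrin receptor, at 149, 140.1 and 222 against 413 and 412 CPM (log2 difference -1.27 ± 0.22, adjusted p = 0.007). The Sorafenib clones were above every SMAP clone in these 3 receptors. ERBB2 (119, 115 and 105 against 30.6 and 40.8 CPM), FGFR1 (86.9, 109 and 67.1 against 32.3 and 20.9 CPM) and ROR1 (59.2, 46.8 and 35.9 against 7.49 and 4.48 CPM) were higher in SMAP clones. Neighbours stood at 0.76 around ERBB2 on chromosome 17, at -0.78 around EPHB4 on chromosome 7 and at -0.63 around MERTK on chromosome 2. EGFR (471, 350.5 and 422 against 398 and 366 CPM), EPHA2 and MET were not called (adjusted p = 0.569, 0.721 and 0.0649). KDR, the VEGF receptor that Sorafenib inhibits, was below 1 CPM in each of the 5 clones. Among these receptors, leaving out a clone ended the call of ROR1 (without Sor6G or Sor9H, adjusted p up to 0.0855).

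Transcripts that report ERK activity were more often lower than higher in SMAP clones, 9 against 3 of 24 (median log2 -0.49). EREG, an EGF receptor ligand, was at 1.23, 0.382 and 2.05 CPM in SMAP clones and at 24.7 and 70.6 CPM in Sorafenib clones (log2 difference -5.29 ± 0.84, adjusted p = 0.00551). DUSP4, a phosphatase that switches off ERK in the nucleus, was at 1.71, 1.104 and 2.97 against 12.8 and 31.4 CPM (log2 difference -3.52 ± 0.75, adjusted p = 0.0138), and ETV1, an ETS factor, at 9.68, 6.28 and 3.62 against 27.4 and 35.1 CPM (log2 difference -2.26 ± 0.41, adjusted p = 0.0086). Sor9H was the highest clone in each of these genes. AREG (0.6796, 0.311 and 0.594 against 3.88 and 8.76 CPM) and ETV4 (3.18, 1.03 and 0.594 against 8.97 and 6.69 CPM) were lower as well. MYC (74.4, 75.5 and 78.7 against 56.7 and 38.3 CPM, log2 difference 0.68 ± 0.17, adjusted p = 0.0228) and LIF (72.6, 60.8 and 59.3 against 37.6 and 32.8 CPM, log2 difference 0.87 ± 0.16, adjusted p = 0.00846) were higher in SMAP clones, and PHLDA1 and SPRED2 were not called (adjusted p = 0.311 and 0.129). Without Sor9H the 9 lower genes became 2, and the 3 higher genes became 1 without SMAP8D or SMAP9C. EREG kept its call without any 1 clone, while calls were lost for DUSP4 (without Sor9H, adjusted p 0.0865), ETV1 (without Sor9H, adjusted p 0.0548), AREG (without SMAP8D, SMAP9C, SMAP6G or Sor9H, adjusted p up to 0.115), ETV4 (without SMAP9C, SMAP6G, Sor6G or Sor9H, adjusted p up to 0.161), MYC (without SMAP8D, SMAP9C, SMAP6G or Sor9H, adjusted p up to 0.08) and LIF (without Sor9H, adjusted p 0.0608). ETV1 lies on chromosome 7 among neighbours at -1.08 and ETV4 on chromosome 17 among neighbours at 0.59.

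Antigen presentation genes were higher in SMAP clones. Peptides cut by the immunoproteasome are carried by the TAP transporter to class I molecules, and NLRC5 and CIITA switch on the class I and class II genes. Of 24 listed genes, 18 were higher and 0 lower (median log2 1.32). NLRC5 was at 11.8, 11.7 and 11.8 CPM in SMAP clones and at 1.64 and 0.723 CPM in Sorafenib clones (log2 difference 3.31 ± 0.39, adjusted p = 0.00235). HLA-F, a nonclassical class I gene, was at 7.88, 6.91 and 7.701 against 0.666 and 0.265 CPM (log2 difference 4.0 ± 0.53, adjusted p = 0.00313), and PSMB9, a subunit of the immunoproteasome, at 57.5, 47.1 and 50.5 against 18.1 and 13.8 CPM (log2 difference 1.7 ± 0.34, adjusted p = 0.0121). SMAP clones lay close together in these genes and above both Sorafenib clones. HLA-B (219, 203 and 231 against 112 and 47.5 CPM) and CD74, the class II chaperone (4.31, 4.91 and 9.76 against 0.773 and 0.05898 CPM), were higher with lower values in Sor9H than in Sor6G. B2M, the class I light chain (691, 802 and 769 against 713 and 714 CPM), and TAPBP were not called (adjusted p = 0.607 and 0.0657). Class I and class II genes are near-identical copies in part, so their counts carry the uncertainty of shared reads. Without Sor9H the count fell to 8, and leaving out a clone ended the calls of HLA-B (without SMAP8D, SMAP9C, SMAP6G or Sor9H, adjusted p up to 0.0617), PSMB9 (without Sor9H, adjusted p 0.0871) and CD74 (without SMAP6G, adjusted p 0.0518). The listed immune cell markers stayed below 1 CPM in each clone.

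Of the 24 genes, 19 had a RefSeq promoter (GRCh38.p14), and 9 of these (47.4%) hold the interferon-type motif, GAAA followed after any 2 bases by GAAA again, which interferon regulatory factors bind, on either strand, compared with 4.08% of the promoters of tested genes and 4.38% of the promoters in the table. Among 15 that were higher in SMAP clones and had a promoter, 7 hold it, beside the 9 of 19 over the list. This list too was chosen by role, so its share above that of the tested genes describes the list and not these clones. Stretches of 4 called holders, picked as for the other promoter sets and no ranking, are printed 5′ to 3′ on the gene's strand with the match in capitals. In HLA-F and ERAP1 the letters are on the opposite strand.
HLA-F (chr6:29723252-29723313, plus strand): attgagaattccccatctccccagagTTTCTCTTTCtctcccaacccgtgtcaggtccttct
ERAP1 (chr5:96807908-96807969, minus strand): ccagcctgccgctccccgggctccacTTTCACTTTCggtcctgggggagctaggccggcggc
TAP2 (chr6:32838762-32838823, minus strand): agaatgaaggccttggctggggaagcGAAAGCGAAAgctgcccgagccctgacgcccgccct
PSMB10 (chr16:67936836-67936897, minus strand): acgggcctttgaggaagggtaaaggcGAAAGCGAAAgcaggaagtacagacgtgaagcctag
ERAP1, which trims peptides, was at 196, 227 and 204 against 101 and 66.3 CPM, TAP2, a chain of the transporter, at 72.3, 65.2 and 63.1 against 29.7 and 24.3 CPM, and PSMB10, a further immunoproteasome subunit, at 6.52, 6.47 and 6.203 against 2.88 and 2.42 CPM (adjusted p = 0.004, 0.00935 and 0.00909). These 3 are named for the motif, after their values were seen. Leaving out a clone ended the calls of TAP2 (without Sor9H, adjusted p 0.0689) and PSMB10 (without Sor9H, adjusted p 0.0697). ERAP1 lies on chromosome 5 among neighbours at 0.78.

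Interferon response genes were higher in 14 and lower in 2 of 44 cases (median log2 0.65). The 36.4% called is near the 34.5% over the tested genes. By direction, 31.8% were higher and 4.5% lower, against 16.8% and 17.7% over the tested genes. IFITM1, a membrane restriction factor, was at 12.4, 22.3 and 31.5 CPM in SMAP clones and at 0.147 and 0.133 CPM in Sorafenib clones (log2 difference 7.28 ± 0.54, adjusted p = 0.00074), and IFITM3 at 684, 962 and 722 against 182 and 193 CPM (log2 difference 2.07 ± 0.28, adjusted p = 0.00345). BST2, the tetherin that holds back budding virus, was at 38.2, 18.3 and 33.5 against 2.01 and 0.988 CPM (log2 difference 4.32 ± 0.55, adjusted p = 0.00302), and GBP1, a guanylate-binding protein, at 20.97, 30.1 and 34.7 against 6.29 and 6.53 CPM (log2 difference 2.16 ± 0.34, adjusted p = 0.005). The drugs did not overlap in these 4 genes, and the calls held without any 1 clone. MX1 was highest in SMAP8D (22.6, 3.69 and 7.03 against 2.35 and 1.12 CPM). STAT2, a signal transducer of interferon, was lower in SMAP clones (42.4, 47.9 and 41.5 against 60.2 and 60.4 CPM, adjusted p = 0.0173). Calls lost on leaving out a clone were those of MX1 (without SMAP8D, SMAP6G, Sor6G or Sor9H, adjusted p up to 0.222) and STAT2 (without SMAP8D, Sor6G or Sor9H, adjusted p up to 0.0934). The 2 lower genes became 0 without either Sorafenib clone and 1 without SMAP9C or SMAP6G. Among 27 NF-kB targets and cytokines, 10 were higher and 3 lower (median log2 0.33). CCL2, a monocyte chemokine, was at 519.9, 334 and 512 against 4.24 and 29.5 CPM (log2 difference 4.75 ± 0.86, adjusted p = 0.00844), CCL5 at 37.4, 11.2 and 15.8 against 1.48 and 0.369 CPM (log2 difference 4.53 ± 0.84, adjusted p = 0.00914) and TNFSF10, the death ligand TRAIL, at 18.1, 16.4 and 14.1 against 1.16 and 2.73 CPM (log2 difference 3.06 ± 0.56, adjusted p = 0.00885). IL18 was lower in SMAP clones (4.52, 4.57 and 5.33 against 20.9 and 29.5 CPM, log2 difference -2.39 ± 0.33, adjusted p = 0.00353). CCL2 and CCL5 lie on chromosome 17 among neighbours at 0.92 and 0.86. The higher cytokine genes numbered 4 without either Sorafenib clone.

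**Figure D4:**
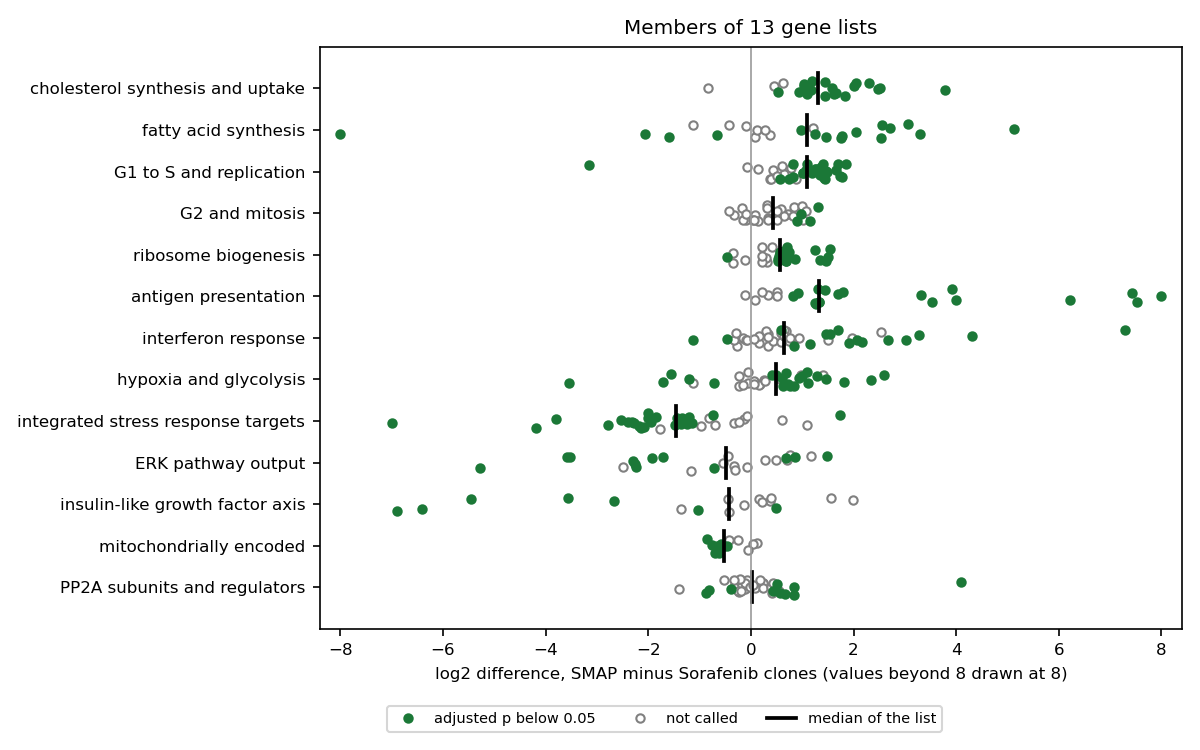
Each point is the log2 difference (SMAP minus Sorafenib clones) of a gene in 13 gene lists, filled where the adjusted p was below 0.05, with the list median as a black bar. Sterol, replication and antigen presentation genes lie to the right of 0, stress response targets to the left, and PP2A genes around 0.

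Epithelial and mesenchymal markers did not move as blocks. In SMAP clones 6 of 37 genes of epithelial junctions and identity were higher and 9 lower (median log2 -0.50), and of 29 mesenchymal and matrix genes, 9 were higher and 7 lower (median log2 -0.23). These are 40.5% and 55.2% called, against 34.5% over the tested genes and 40.3% over those that averaged 5 CPM or more. On the epithelial side, CDH3, P-cadherin, was at 59.9, 107 and 29.2 CPM in SMAP clones and at 0.213 and 0.118 CPM in Sorafenib clones (log2 difference 8.59 ± 1.27, adjusted p = 0.00452), and OCLN, a tight junction protein, at 23.8, 17.4 and 20.7 against 3.25 and 2.27 CPM (log2 difference 2.9 ± 0.28, adjusted p = 0.00133). ESRP2, a splicing factor of epithelia, was at 0.0416, 0.0283 and 0.134 against 6.44 and 4.48 CPM (log2 difference -6.31 ± 0.65, adjusted p = 0.00175), and KRT7 at 9.403, 5.34 and 6.75 against 30.3 and 29.4 CPM (log2 difference -2.06 ± 0.29, adjusted p = 0.00361). Each SMAP clone was above both Sorafenib clones in CDH3 and OCLN and below them in ESRP2 and KRT7. The summed duct markers, given above, were lower in each SMAP clone than in either Sorafenib clone, and their part in these values was not tested. CDH1, E-cadherin, was at 7.99, 3.17 and 15.6 against 1.25 and 0.162 CPM and was not called (adjusted p = 0.0812), nor were KRT18 (425, 727 and 827 against 858 and 1007 CPM, adjusted p = 0.213) and KRT19 (168, 205 and 692 against 726 and 936 CPM, adjusted p = 0.198). DSP, desmoplakin, was at 61.7, 33.8 and 1.35 against 0.07999 and 0.133 CPM (adjusted p = 0.0162), and SMAP6G was far below the other SMAP clones. On the mesenchymal side, CDH2, N-cadherin, was at 41.5, 6.34 and 29.04 against 0.227 and 1.28 CPM (adjusted p = 0.0448), MMP2, a gelatinase, at 827, 1505 and 869 against 242 and 334 CPM (adjusted p = 0.00648), and LOXL2, a lysyl oxidase, at 269, 303 and 318 against 97.5 and 62.8 CPM (adjusted p = 0.00257). CALD1, caldesmon (5.88, 4.87 and 17.8 against 139 and 162 CPM), FBN1, fibrillin (3.34, 4.699 and 11.4 against 69.2 and 129 CPM), and LOX (1.61, 1.74 and 1.97 against 15.9 and 35.6 CPM) were lower, as FN1 was. ZEB1, a repressor of E-cadherin, was not called (108, 137 and 73.7 against 134 and 137 CPM, adjusted p = 0.434). The 6 fibroblast markers of the opening summed to overlapping ranges in the 2 drugs, while 2 of them, COL1A1 and DCN, were called higher in SMAP clones and 0 lower (median log2 2.21, and 3.83 over the 4 with neighbours within 0.5 of 0). These 2 calls became 1 without SMAP8D, SMAP9C, ATUX9D or Sor6G and 0 without Sor9H, and the part of the markers in the mesenchymal values was not tested. Calls were lost without a clone for DSP (without Sor6G or Sor9H, adjusted p up to 0.104), CDH2 (without SMAP8D, SMAP6G, Sor6G or Sor9H, adjusted p up to 0.192) and MMP2 (without Sor6G, adjusted p 0.0502). Epithelial genes numbered 2 higher and 4 lower without Sor6G and 3 higher and 4 lower without Sor9H, and the higher mesenchymal genes 4 and 5. Without ATUX9D, and with only the 5 compared clones, 10 epithelial genes were higher, and CDH1 was called in both of those fits and by DESeq2. Neighbours stood at -0.73 around CALD1, -0.54 around FBN1, 0.54 around OCLN, 0.51 around LOX and -0.7 around CDH2.

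Matrix receptors and growth factor carriers differed member by member. Of 26 integrins and laminins, 5 were higher and 6 lower in SMAP clones (median log2 -0.05). The 42.3% called stands against 34.5% over the tested genes and is near the 40.3% over those that averaged 5 CPM or more. ITGA5, the fibronectin receptor chain, was at 245, 305 and 224 CPM in SMAP clones and at 57.9 and 60.3 CPM in Sorafenib clones (log2 difference 2.13 ± 0.16, adjusted p = 0.000814), while FN1, its ligand, was lower as given above. ITGA11, a collagen receptor chain, was at 51.4, 28.9 and 35.3 against 1.2 and 1.02 CPM (log2 difference 5.12 ± 0.41, adjusted p = 0.00101). ITGA6, a laminin receptor chain, was at 240.1, 298 and 252 against 735 and 1065 CPM (log2 difference -1.77 ± 0.19, adjusted p = 0.00174), and ITGB8, which activates latent TGF-beta, at 2.46, 2.67 and 1.08 against 14.7 and 86.2 CPM (log2 difference -4.6 ± 0.77, adjusted p = 0.00644). ITGA5 and ITGA11 were thus higher and ITGA6 lower in each SMAP clone, and ITGB1 and ITGAV were not called (adjusted p = 0.796 and 0.312). ITGA2, ITGA3 and ITGA10 were called too and are not described here, so the chains given do not stand for their receptor classes. Of 25 collagens, 5 were higher and 2 lower, a smaller share called than the 34.5% over the tested genes. COL1A1 was at 154, 160.2 and 48.98 against 13.04 and 10.6 CPM (log2 difference 3.36 ± 0.54, adjusted p = 0.00592), and COL3A1 was not called (12.1, 21.02 and 1.75 against 51.9 and 139 CPM, adjusted p = 0.118). The higher collagens numbered 0 without Sor9H, 1 without Sor6G, 3 without SMAP8D and 8 without SMAP6G, the lower ones 0 without Sor6G and 1 without SMAP9C, SMAP6G or Sor9H, and COL1A1 lost its call without Sor9H (adjusted p = 0.0548). Integrins and laminins numbered 3 higher and 2 lower without Sor6G and 2 higher without Sor9H. In the insulin-like growth factor axis, 6 of 17 genes were lower and 1 higher (median log2 -0.42), and the higher call was lost without any 1 of the 5 clones. IGFBP2, a binding protein, was at 3.59, 1.83 and 1.87 against 148 and 268 CPM (log2 difference -6.42 ± 0.42, adjusted p = 0.000716), and PAPPA, a protease that frees IGF from its carriers, at 6.34, 9.41 and 5.77 against 53.2 and 37.9 CPM (log2 difference -2.67 ± 0.26, adjusted p = 0.00133). IGFBP1 (0.291, 0.198 and 0.134 against 13.1 and 5.46 CPM), IGFBP6 (1.42, 0.425 and 2.64 against 6.09 and 29.2 CPM) and the receptor IGF1R (52.3, 52.4 and 45.3 against 103 and 101 CPM) were lower too. Leaving out a clone ended the calls of IGFBP1 (without Sor6G, adjusted p 0.0594), IGFBP6 (without SMAP8D, SMAP9C or Sor9H, adjusted p up to 0.205) and IGF1R (without any 1 of the 5, adjusted p up to 0.14).

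Signalling ligands and transcription factors of development also differed. In the TGF-beta pathway, 6 of 31 genes were higher and 9 lower in SMAP clones (median log2 -0.20). INHBA, the activin A subunit, was at 0.0277, 0.0991 and 0.104 CPM in SMAP clones and at 7.91 and 7.87 CPM in Sorafenib clones (log2 difference -6.66 ± 0.62, adjusted p = 0.00129), and FST, its antagonist follistatin, at 0.2496, 0.0849 and 0.148 against 4.11 and 9.91 CPM (log2 difference -5.43 ± 0.84, adjusted p = 0.00511). TGFB2 was at 5.35, 6.06 and 13.8 against 44.5 and 76.6 CPM (log2 difference -2.85 ± 0.46, adjusted p = 0.00573), among neighbours on chromosome 1 at -0.93. Activin, its antagonist and the TGF-beta ligand were thus all lower in SMAP clones. SMAD2 and SMAD7 were higher (129.8, 199 and 131 against 57.1 and 48.7 CPM and 41.2, 23.1 and 22.8 against 10.6 and 10.03 CPM) and lie on chromosome 18 among neighbours at 1.09. BMP7, a bone morphogenetic protein, was at 2.07, 10.6 and 28.1 CPM in SMAP clones and at 0.12 and 0.0885 CPM in Sorafenib clones (log2 difference 7.0 ± 1.41, adjusted p = 0.0119), with SMAP6G highest and SMAP8D lowest, among neighbours on chromosome 20 at -0.62. Calls were lost without a clone for SMAD2 (without Sor9H, adjusted p 0.0521), SMAD7 (without Sor6G or Sor9H, adjusted p up to 0.0744) and BMP7 (without Sor6G or Sor9H, adjusted p up to 0.0912). Without Sor9H the pathway had 1 higher and 4 lower genes, and without Sor6G 2 higher. In the WNT pathway, 9 of 33 were higher and 7 lower (median log2 0.09). WNT7B was at 4.55, 2.77 and 4.09 against 54.7 and 118 CPM (log2 difference -4.5 ± 0.53, adjusted p = 0.00244), FZD6, a Frizzled receptor, at 39.1, 37.1 and 14.4 against 0.867 and 1.02 CPM (log2 difference 5.0 ± 0.55, adjusted p = 0.00206), and LGR4, a receptor for R-spondins, at 117, 98.3 and 117 against 284 and 333 CPM (log2 difference -1.48 ± 0.12, adjusted p = 0.00109). TCF7L1 and TCF7L2, which bind beta-catenin, were lower (17.1, 15.4 and 9.15 against 59.1 and 58.5 CPM and 30.6, 34.2 and 25.5 against 79.8 and 122 CPM), and CTNNB1 was not called (adjusted p = 0.473). LEF1, another factor of this class, was below 0.1 CPM in each of the 5 clones and at 13.6 and 17.96 CPM in the ATUX clones. The higher WNT genes numbered 4 without SMAP8D, SMAP9C or Sor9H and 5 without Sor6G.

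HOX genes, which mark position along the body axis, were lower in 8 and higher in 2 of 28 cases (median log2 -0.48). The 35.7% called is near the 34.5% over the tested genes. Beside HOXC12, HOXC4 was at 16.6, 14.8 and 14.9 CPM in SMAP clones and at 49.7 and 65.2 CPM in Sorafenib clones (log2 difference -1.9 ± 0.15, adjusted p = 0.000814), and HOXB9 at 14.7, 8.39 and 15.4 against 65.3 and 50.8 CPM (log2 difference -2.18 ± 0.29, adjusted p = 0.00322). HOXC8, in the same cluster as HOXC12, was higher in SMAP clones (23.1, 25.2 and 19.96 against 11.7 and 11.5 CPM, log2 difference 0.97 ± 0.17, adjusted p = 0.00648), and HOXC10 was not called (60.7, 79.3 and 88.3 against 72.7 and 81.5 CPM, adjusted p = 0.946). Members of one cluster thus ran in both directions. The lower HOX genes numbered 5 without SMAP8D or SMAP9C and 3 without either Sorafenib clone, and the 2 higher ones became 1 without SMAP9C, SMAP6G or either Sorafenib clone. Of 37 axon guidance ligands and receptors, 10 were higher and 7 lower (median log2 0.07). PLXNA1, a semaphorin receptor, was at 840.3, 891 and 531 against 129 and 78.5 CPM (log2 difference 2.86 ± 0.45, adjusted p = 0.00556), its relative PLXNA2 at 33.2, 43.7 and 26.4 against 125 and 184 CPM (log2 difference -2.17 ± 0.35, adjusted p = 0.0059), SEMA3F at 81.9, 87.5 and 90.2 against 24.9 and 18.1 CPM (log2 difference 2.01 ± 0.31, adjusted p = 0.00498) and UNC5C, a netrin receptor, at 12.8, 19.4 and 12.9 against 0.0267 and 0.103 CPM (log2 difference 7.84 ± 0.68, adjusted p = 0.00118). PLXNA1 was higher and PLXNA2 lower in each SMAP clone than in either Sorafenib clone, and PLXNA2 lies on chromosome 1 among neighbours at -0.57. The higher guidance genes numbered 3 without Sor6G and 4 without Sor9H.

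Drug transporters and xenobiotic enzymes beside CYP1B1 and CES1 ran in both directions. Of 29 ABC transporters, 7 were higher and 5 lower in SMAP clones (median log2 0.22). The 41.4% called stands against 34.5% over the tested genes and is near the 40.3% over those that averaged 5 CPM or more. ABCC1, a multidrug exporter, was at 599, 677 and 492 CPM in SMAP clones and at 267 and 277 CPM in Sorafenib clones (log2 difference 1.11 ± 0.19, adjusted p = 0.00637), and ABCG2, another exporter, at 11.6, 26.9 and 20.9 against 4.32 and 1.95 CPM (log2 difference 2.65 ± 0.59, adjusted p = 0.0159). ABCC3 was lower (131, 90.8 and 219 against 633 and 642 CPM, log2 difference -2.12 ± 0.53, adjusted p = 0.0246). No clone of one drug fell in the range of the other in these 3 exporters. Calls lost on leaving out a clone were those of ABCG2 (without Sor9H, adjusted p 0.1) and ABCC3 (without SMAP8D, SMAP9C, Sor6G or Sor9H, adjusted p up to 0.101). The 5 lower transporters became 0 without SMAP8D or either Sorafenib clone and 2 without SMAP9C, and the 7 higher ones 4 without Sor6G and 2 without Sor9H. ABCG2 was at 113 and 266 CPM in the ATUX clones. Of 33 xenobiotic enzymes, 4 were higher and 6 lower (median log2 -0.20). The 30.3% called is below the 34.5% over the tested genes. GSTM2 was at 1.57, 1.16 and 0.9497 against 5.43 and 7.79 CPM (log2 difference -2.43 ± 0.34, adjusted p = 0.00364) and GSTP1 was not called (357, 288 and 310.1 against 256 and 274 CPM, adjusted p = 0.163). Without Sor9H, 2 of these enzymes were lower.

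Iron, redox and glycolysis genes were mixed, with large single differences. HMOX1, which breaks down haem, was at 171, 203 and 226 CPM in SMAP clones and at 29.7 and 17. CPM in Sorafenib clones (log2 difference 3.1 ± 0.28, adjusted p = 0.00125). Of the ferritin chains, the heavy chain FTH1 was higher in SMAP clones as given above, and the light chain FTL was lower (729, 504 and 932 against 1545 and 1487 CPM, log2 difference -1.07 ± 0.24, adjusted p = 0.0154). The transferrin receptor TFRC was higher (369, 404 and 484 against 219 and 197 CPM, log2 difference 1.01 ± 0.15, adjusted p = 0.00458). The 2 ferritin chains thus ran in opposite directions. Of 12 iron genes, 6 were higher and 2 lower (median log2 0.76), with 1 lower without either Sorafenib clone. Of 25 NRF2 targets, 5 were higher and 7 lower (median log2 -0.05), with the transketolase TKT higher (811, 986 and 857 against 227 and 281 CPM, log2 difference 1.8 ± 0.23, adjusted p = 0.00296) and the quinone reductase NQO1 lower (298, 269 and 271 against 421 and 509 CPM, log2 difference -0.74 ± 0.13, adjusted p = 0.00672). TXNRD1 was not called (adjusted p = 0.413). Of 37 hypoxia and glycolysis genes, 17 were higher and 5 lower (median log2 0.48), with the lactate exporter SLC16A3 at 244, 309.7 and 295 against 102 and 102 CPM (log2 difference 1.47 ± 0.16, adjusted p = 0.00203). HK2, a hexokinase, was lower (10.6, 17.4 and 17.97 against 56. and 44.03 CPM, log2 difference -1.7 ± 0.38, adjusted p = 0.0164), and VEGFA, PFKP and HK1 were not called (adjusted p = 0.646, 0.838 and 0.198). The higher glycolysis genes numbered 9 to 11 on leaving out any 1 of the 5 clones, and the lower ones 1 to 5. The NRF2 targets numbered 3 higher without SMAP6G and 2 without Sor9H, and 3 or 4 lower without SMAP8D, SMAP9C or a Sorafenib clone. Leaving out a clone ended the calls of FTL (without Sor6G or Sor9H, adjusted p up to 0.0702) and HK2 (without Sor6G or Sor9H, adjusted p up to 0.0913).

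Levels in the ATUX clones are set beside those of the genes above. The comparison of SMAP with ATUX clones uses the same SMAP clones and is no support for the one with Sorafenib clones. In it 10.3% of the 18613 genes were called. For genes high in SMAP clones, ATUX8H and ATUX9D stood at 444 and 549 CPM of CYP1B1 (adjusted p = 0.0513 against SMAP clones), at 13.1 and 2.54 CPM of TNC (0.0374), at 0.7395 and 0.0848 CPM of NCAM1 (0.0205) and at 1185 and 996 CPM of FTH1 (0.00659). CYP1B1 was thus read in the ATUX clones too, and NCAM1 was below 1 CPM there. For genes high in Sorafenib clones, the ATUX clones stood at 13.8 and 34.4 CPM of FN1 (0.0424), at 0.972 and 0.127 CPM of HOXC12 (0.114), at 136 and 93.2 CPM of ASNS (0.809) and at 43.7 and 9.49 CPM of PHGDH (0.982). In these 4 genes the ATUX values were closer to the SMAP than to the Sorafenib values. HMGCS1 was at 77.8 and 90.96 CPM in the ATUX clones (0.00897), between the other clones.

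Differences were not spread evenly over the genome. Among 11017 genes that averaged 5 CPM or more, the median log2 difference was -0.01, but it was 0.65 over 512 genes of chromosome 5 and 0.74 over 351 genes of X. Over the 11017 genes 2115 were higher and 2325 lower, or 40.3% called in either direction. On chromosome 5, 300 genes were higher and 26 lower in SMAP clones (63.7% called), and on X 143 and 14 (44.7%). Chromosome 7 ran the other way with a median of -0.45 over 526 genes, 34 higher and 219 lower (48.1%). Within chromosomes, the median was 1.29 in the bases up to 25 Mb of chromosome 5, 1.48 from 100 to 125 Mb of chromosome 13, where 34 of 39 genes were higher and 0 lower, and -0.69 from 200 to 225 Mb of chromosome 1. On chromosome 17 it was -0.52 up to 25 Mb and 0.64 from 25 to 50 Mb. The medians are descriptions without a test. DNA copy number was not measured, so its part in the genes named beside their neighbours above was not tested.

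**Figure D5:**
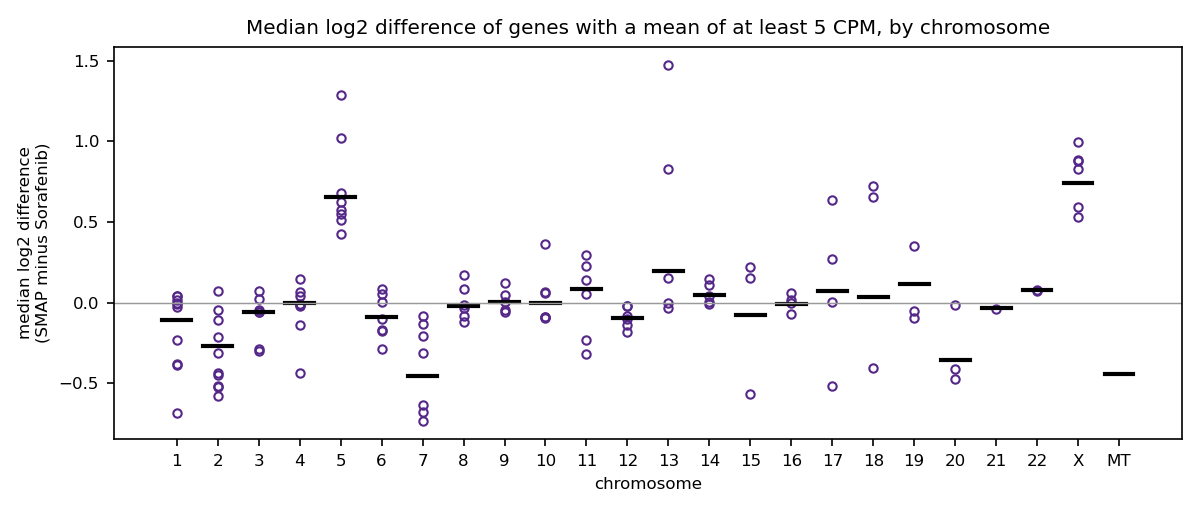
Median log2 difference (SMAP minus Sorafenib clones) of genes that averaged 5 CPM or more: black bars give whole chromosomes and open circles give windows of 25 Mb holding at least 20 such genes. Chromosomes 5 and X lie above 0 in each window, chromosome 7 lies below 0 in each window, and the windows of chromosome 13 and 17 lie on both sides.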

How the data were processed

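The authors deposited raw counts for each gene in each library, in which 0 sample columns were left without a sample. The submitters' processing notes name build GRCh38 and, as tools, featureCounts 1.5.3, SAMtools 1.5, STAR 2.5.2b, Bowtie2 2.3.3.1 and cutadapt 1.15. Not given in the sources used here: their order, the annotation release and the strand setting. Antisense pairs cannot be told apart. Gene length is a deposited property of each gene and was not used for levels, which therefore compare clones and not genes.

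The 3 libraries of a clone were summed, and the 7 sums entered edgeR 4.0.16 (R 4.3.3; trimmed mean of M values, filterByExpr by drug, robust quasi-likelihood fit). The labels do not say whether a clone's libraries are separate cultures. Genes with an adjusted p below 0.05 were called. Alternatives used limma 3.58.1 and DESeq2 1.42.0.

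Members and gene lists were chosen with earlier results of these data known. For each direction, the text draws on the 12 called genes with the largest log2 difference and the 8 with the largest CPM difference, and on up to 5 called and 3 uncalled members of a list, all with at least 5 CPM in the higher drug where called and, for the genes outside lists, no overlap between libraries. A fixed set of named genes was added. A neighbour is a gene within 5 Mb with a mean of at least 5 CPM. Floors are 3 counts over a group. A few genes are not reported here.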

Additional observations from a re-analysis of the deposited data

How the results depend on the processing

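The direction held under each of 19 alternatives for the 327 called genes that were followed by name, with 0 reversals; 110 kept their call under each alternative and 168 under each but the test against a log2 difference of 1. Higher and lower genes numbered 702 and 681 in that test, which asks for a larger difference. Taking the 21 libraries as samples gave 5499 and 5473, and adding the repeat number as a replicate block gave 5402 and 5386; these fits count libraries of a clone as independent. Same-numbered libraries of the 2 Sorafenib clones correlated at 0.143 to 0.199. Those of a SMAP and a Sorafenib clone correlated at -0.103 to 0.127, over 0.1 in 2 of 18 cases. Little pairing by repeat number was thus seen across the drugs. Repeat numbers do not match the letters of the library names in every clone, and pairing by letter was not tested. Over fits that each left out 1 clone, the counts ran from 1278 to 3358 higher and from 1483 to 3465 lower. Without a Sorafenib clone the lone clone is assumed to vary like the other drugs' clones. Of the 327 calls, 131 were lost without Sor9H, 105 without Sor6G and 44 to 57 without a SMAP clone, and 172 were kept without any 1 of the 5 clones. Other settings (RLE size factors, library size only, no filter, at least 1 CPM in 2 clones, DESeq2, limma-voom, only the 5 clones, without the third ATUX libraries, and, chosen after seeing the data, without the third Sor9H library) gave 2819 to 3796 higher and 2851 to 3855 lower genes. The number of Sorafenib clones limits the precision; depth was not varied.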

Other observations

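Chaperones and zinc-binding proteins were among the lists not described above. Of 18 cytosolic heat shock proteins, 7 were higher and 0 lower in SMAP clones (median log2 0.44), with fewer higher when Sor9H was left out. The 38.9% called stands against 34.5% over the tested genes and 40.3% over those that averaged 5 CPM or more. BAG3, a cochaperone of HSP70, was at 384, 469 and 323 CPM in SMAP clones and at 139 and 149.6 CPM in Sorafenib clones (log2 difference 1.44 ± 0.18, adjusted p = 0.00281), and HSPH1, a nucleotide exchange factor, at 247, 234 and 259 against 133 and 114 CPM (log2 difference 1.0 ± 0.13, adjusted p = 0.003). In the endoplasmic reticulum, CANX, the lectin chaperone calnexin, was higher (1417, 1405 and 1443 against 546 and 441 CPM, log2 difference 1.53 ± 0.14, adjusted p = 0.00125) and lies on chromosome 5 among neighbours at 0.68. HSPA5, the main chaperone of that compartment, was not called (769.8, 824 and 804 against 1071 and 592 CPM, adjusted p = 0.87). HERPUD1, a factor of protein degradation there, was lower (32.9, 36.9 and 32.1 against 55.7 and 57.4 CPM, log2 difference -0.74 ± 0.12, adjusted p = 0.00583). MT2A, a metallothionein, was higher in SMAP clones (151, 123 and 112 against 40.4 and 46.04 CPM, log2 difference 1.57 ± 0.17, adjusted p = 0.00181).

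TNFRSF10B, a TRAIL receptor, was at 53.1, 50.6 and 49.5 CPM in SMAP clones and at 140.4 and 113 CPM in Sorafenib clones (log2 difference -1.31 ± 0.12, adjusted p = 0.0012), whereas its ligand TNFSF10 was higher as given above. YAP and TEAD have 28 targets in the list, and 6 of these were higher and 7 lower, with PTPN14 at 194, 202 and 203 against 849 and 827 CPM (log2 difference -2.07 ± 0.1, adjusted p = 0.000465) among neighbours at -0.6. Without Sor9H, 1 of these targets was higher and 4 were lower, and 2 or 3 were higher without Sor6G, SMAP8D or SMAP6G. Among imprinted genes, MEG3, a long noncoding RNA, was higher (351, 499 and 540.1 against 70.8 and 87.3 CPM, log2 difference 2.55 ± 0.23, adjusted p = 0.00117) and MEST, a hydrolase, lower (3.04, 2.73 and 3.07 against 96.7 and 105 CPM, log2 difference -5.09 ± 0.43, adjusted p = 0.00117), with neighbours of MEST on chromosome 7 at -0.68. In the lysosome, the protease CTSZ (81.2, 79.9 and 81.3 against 176 and 191 CPM) was lower and LAMP1, a membrane glycoprotein (432, 458 and 328 against 159 and 136 CPM), was higher, the latter on chromosome 13 among neighbours at 1.44. CD44, a hyaluronan receptor, was at 1568, 1418 and 1958 against 736 and 867 CPM (log2 difference 1.04 ± 0.2, adjusted p = 0.0102), with neighbours on chromosome 11 at 0.51; leaving out a clone ended the call of CD44 (without Sor6G, adjusted p 0.0675).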
